A study of Mus musculus with 6 samples.

Results

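Titin, cardiac myosin-binding protein C, the myomesins, the Xin repeat proteins and desmin hold the heart sarcomere in register, and the genes that encode them were compared between wild type and irisin knockout hearts. The 8 genes Ttn, Mybpc3, Myom1, Myom2, Myom3, Xirp1, Xirp2 and Des were chosen by name from the array's platform annotation, and each had 1 row among the 23185 rows that carry a gene symbol. Expression had been measured in FVB mice, an inbred strain, on 1 Affymetrix array per sample, with 3 wild type and 3 irisin knockout arrays. The knockout line was made by injecting zygotes with Cas9 mRNA and 5 guide RNAs, so the deletion is in the germ line and not limited to heart cells. Controls were littermates, and both groups had eaten chow with 10% fat for 24 weeks. The sources used here give neither age nor sex of the animals, and the labels name the material both as cardiomyocytes and as myocardium. Whether each array comes from its own animal is not stated outright, so the spread behind the p-values may be technical.

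In the sarcomere, titin runs from the Z-disc, where thin filaments are anchored, to the M-band, where thick filaments are cross-linked, and acts as a spring along the way. Myomesins tie titin and myosin together in the M-band, cardiac myosin-binding protein C sits on the thick filament and tunes the action of myosin heads, and desmin filaments link neighbouring Z-discs to each other and to the cell membrane. Xin repeat proteins bind actin and lie at the intercalated discs, the junctions between heart muscle cells. Titin, myosin-binding protein C and desmin are known as sites of inherited cardiomyopathy mutations.

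Of the 8 genes, only Xirp2 passed the test, and it was higher in the knockout. The test was limma's moderated linear model on the deposited log2 values, two-sided, adjusted by the Benjamini-Hochberg method over all 23185 genes, with a gene called at an adjusted p under 0.05. This is 12.5% of the 8, against 16.6% of all genes called in either direction, 10.4% higher and 6.18% lower. The median difference of the 8 genes, knockout minus wild type, was 0.08 on the log2 scale, against -0.05 over all genes. For 3 of the 8 (Xirp2, Des and Ttn, 37.5%) the groups did not overlap, and 34.1% of all genes showed the same. The values below describe single genes.

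Some facts about the arrays bear on every value. All 10 cardiomyocyte markers examined were bright, with a mean of 10.88 to 11.37 log2 units per array, and 1 of them, Pln, was called higher. Limma called 0 of them higher without any 1 knockout array and without both arrays numbered 1, and after cyclic loess 0 higher and 5 lower, with a median of -0.60. Fndc5, the gene that encodes the irisin precursor, was lower in the knockout by 2.01 log2 units (-2.01, SE 0.54, limma adjusted p = 0.0359). It read 8.42, 8.40 and 7.83 in wild type and 7.68, 5.49 and 5.45 in the knockout, so that knockout replicate 1 lay just below wild type replicate 3 and far above the other knockout arrays. Bright genes as a class were shifted upward: the brightest 2319 genes, part 10 of 10 by mean level, had a median difference of 0.27, and 45.7% of them were called. Of the 8 genes, 7 lie in that part, all but Myom3. Atrial markers were uneven within both groups. Their mean was 9.67 in wild type replicate 1 against 4.39 and 5.74 in replicates 2 and 3, and 5.85 in knockout replicate 1 against 3.19 and 2.91. In bulk samples, fewer cells of a type and less RNA per cell cannot be told apart.

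The sequence before the transcription start held a shared element in 4 of the 6 genes with an entry in the RefSeq promoter table of GRCm38.p6. Xirp2, Ttn, Mybpc3 and Myom3 each had 1 match to the MEF2 site, the binding sequence of myocyte enhancer factor 2, in the 250 bases before the start, on either strand. The share of all 32851 promoter entries with such a match was 2.92%. The match is shown in capitals with the 25 bases on each side, 5′ to 3′ on the gene's own strand. The entries of Myom3 and Myom1 lie inside the annotated gene, at a later transcript start.
Xirp2, chr2:67445903-67445962, plus strand: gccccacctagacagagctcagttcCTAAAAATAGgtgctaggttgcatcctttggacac
Ttn, chr2:76982679-76982738, minus strand: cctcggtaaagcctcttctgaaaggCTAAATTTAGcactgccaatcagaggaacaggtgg
Mybpc3, chr2:91118029-91118088, plus strand: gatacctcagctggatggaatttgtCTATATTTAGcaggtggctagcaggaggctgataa
Myom3, chr4:135759655-135759714, plus strand: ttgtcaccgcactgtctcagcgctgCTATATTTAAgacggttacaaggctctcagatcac

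The matches begin 74, 166, 90 and 35 bases before the start. Of the other motifs searched on both strands, CANNTG, the E-box, was found in 6 of the 6 genes and in 66.2% of all entries, and GATA in 5 of the 6 and in 53.6%. The CArG box, the site of serum response factor, was found in Myom1 alone and in 1.47% of entries. CATTCC, the element read by TEAD factors, was found in 0 of the 6 and in 12.6% of entries. A match is a run of letters and not evidence of binding, and of the 4 genes with a MEF2 match 1 (Xirp2) was called.

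Titin had a lower mean in the knockout, by a difference that did not pass. Ttn (Entrez gene 22138) read 10.60, 10.76 and 10.66 log2 units on the wild type arrays, in the order of their replicate numbers, and 9.85, 9.92 and 10.57 on the knockout arrays. Wild type arrays lay close together (10.68 ± 0.08, SD, n = 3), knockout replicates 1 and 2 lay well below them, and knockout replicate 3 lay just under the lowest wild type value. The difference was -0.56 (SE 0.19, 95% interval -1.001 to -0.12), 1.48-fold lower, and did not pass (limma adjusted p = 0.0855). Without knockout replicate 3 the difference was -0.79 and passed (limma adjusted p = 0.0143), in a fit that called 3.56% of all genes lower. Without any other single array it did not pass (limma adjusted p = 0.108 to 0.258). It was -0.43 without knockout replicate 1 and -0.47 without knockout replicate 2. The difference was negative in all 18 alternative settings. Each array holds 1 value for the whole gene, so the short and long titin isoforms made by alternative splicing are not resolved.

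Cardiac myosin-binding protein C did not pass. Mybpc3 (Entrez gene 17868) read 9.55, 9.93 and 9.71 in wild type and 9.59, 10.06 and 10.01 in the knockout. The groups overlapped, and in both of them replicate 1 was lowest. The difference of 0.16 (SE 0.17, 95% interval -0.22 to 0.54, limma adjusted p = 0.597) turned to -0.095 after quantile normalization and to -0.28 after cyclic loess, a scaling that removes trends with brightness.

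**Figure D1:**
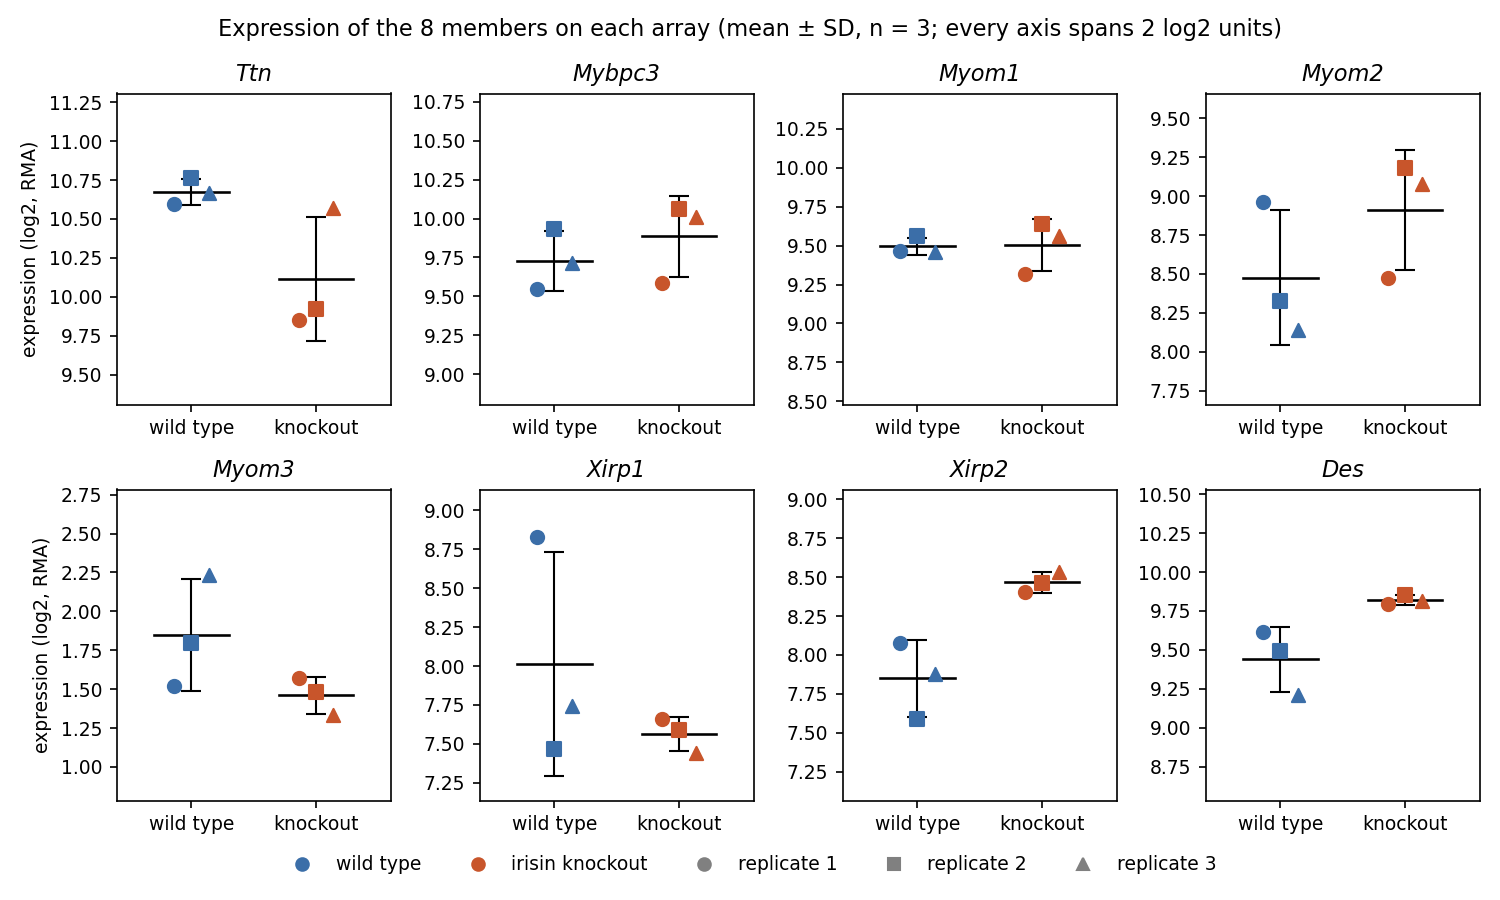
Expression of the 8 genes on each array (log2, RMA), with wild type in blue, irisin knockout in orange, the replicate number as the symbol, and the mean ± SD of 3 arrays in black; every vertical axis spans 2 log2 units. Xirp2 and Des lie higher on all 3 knockout arrays, Ttn lies lower, and wild type replicate 1 stands high for Xirp1 and Myom2.

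On deposited values of all arrays none of the 3 myomesin genes passed (limma adjusted p = 0.974, 0.304 and 0.204 for Myom1, Myom2 and Myom3). Myom1 encodes myomesin, the main cross-linker of thick filaments in the M-band, and had the smallest standard error of the 8 genes. It read 9.47, 9.56 and 9.46 in wild type and 9.32, 9.64 and 9.56 in the knockout (Entrez gene 17929). Its difference of 0.01 had a 95% interval of -0.28 to 0.30 (SE 0.13, limma adjusted p = 0.974). The sign was not stable: the difference was -0.29 after quantile normalization and -0.41 after cyclic loess (adjusted p = 0.0639).

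Myom2 encodes M-protein, a relative of myomesin typical of adult heart and fast muscle, and its arrays numbered 1 went against the others. It read 8.97, 8.32 and 8.14 in wild type and 8.47, 9.18 and 9.08 in the knockout (Entrez gene 17930). Wild type replicate 1 lay within the range of the knockout arrays, and knockout replicate 1 within that of wild type. Over all arrays the difference was 0.44 (SE 0.25, 95% interval -0.14 to 1.01, limma adjusted p = 0.304). In a setting added after seeing the data, without both arrays numbered 1, it was 0.90 (SE 0.16) and passed (limma adjusted p = 0.0170), where 7.63% of all genes were called higher. These are the arrays with the highest atrial marker level in each group, and the part of atrial RNA in this result was not tested. The difference fell to 0.14 after quantile normalization and to 0.06 after cyclic loess.

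Myom3 encodes myomesin-3, known mainly from skeletal muscle fibres, and its values lay near the bottom of the scale. It read 1.52, 1.79 and 2.23 in wild type and 1.57, 1.48 and 1.34 in the knockout (Entrez gene 242702), and the groups overlapped. The difference of -0.39 (SE 0.18, 95% interval -0.81 to 0.03) did not pass (limma adjusted p = 0.204). Its mean level lay at percentile 38.0 of all genes, and no detection calls were used, so a value this low is not told apart from background. Skeletal muscle markers were similarly dim, with a mean of 1.71 to 1.76 in wild type and 1.53 to 1.56 in the knockout, and 0 of 9 were called by limma.

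Of the pair of Xin genes Xirp2 was called higher and Xirp1 was not called. Xirp2, also known as myomaxin, encodes the larger actin-binding Xin repeat protein and read 8.08, 7.59 and 7.88 in wild type and 8.40, 8.46 and 8.54 in the knockout (Entrez gene 241431). All 3 knockout arrays lay above all 3 wild type arrays and close together (8.47 ± 0.07, SD, n = 3). The difference was 0.62 (SE 0.15, 95% interval 0.29 to 0.95), 1.53-fold higher, with a limma adjusted p of 0.0219. The exact two-sided permutation test of Xirp2 alone gave p = 0.1, the smallest that 3 arrays against 3 allow.

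The difference of Xirp2 was positive in all 18 alternatives, but its call was not kept in all of them. Leaving out wild type replicate 3 ended it (limma adjusted p = 0.0521), as did leaving out any knockout replicate (0.0610, 0.0774 and 0.0815 for replicates 1, 2 and 3). It was also lost after quantile normalization (0.33, adjusted p = 0.180), after cyclic loess (0.28, adjusted p = 0.281) and after centring each array on its cardiomyocyte markers (0.56, adjusted p = 0.154). Without both arrays numbered 1 the difference was 0.77, and it passed (adjusted p = 0.0328).

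Xirp1 encodes Xin, the smaller of the pair and a partner of N-cadherin and beta-catenin at the intercalated disc. It read 8.83, 7.46 and 7.74 in wild type and 7.66, 7.59 and 7.44 in the knockout (Entrez gene 22437). Wild type replicate 1 stood more than 1 log2 unit above every other array, and the other 5 arrays overlapped between groups. The difference of -0.45 (SE 0.31, 95% interval -1.15 to 0.26, limma adjusted p = 0.393) shrank to -0.04 without wild type replicate 1. That array also had the highest atrial marker mean, and the part of atrial RNA in the value of Xirp1 was not tested.

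**Figure D2:**
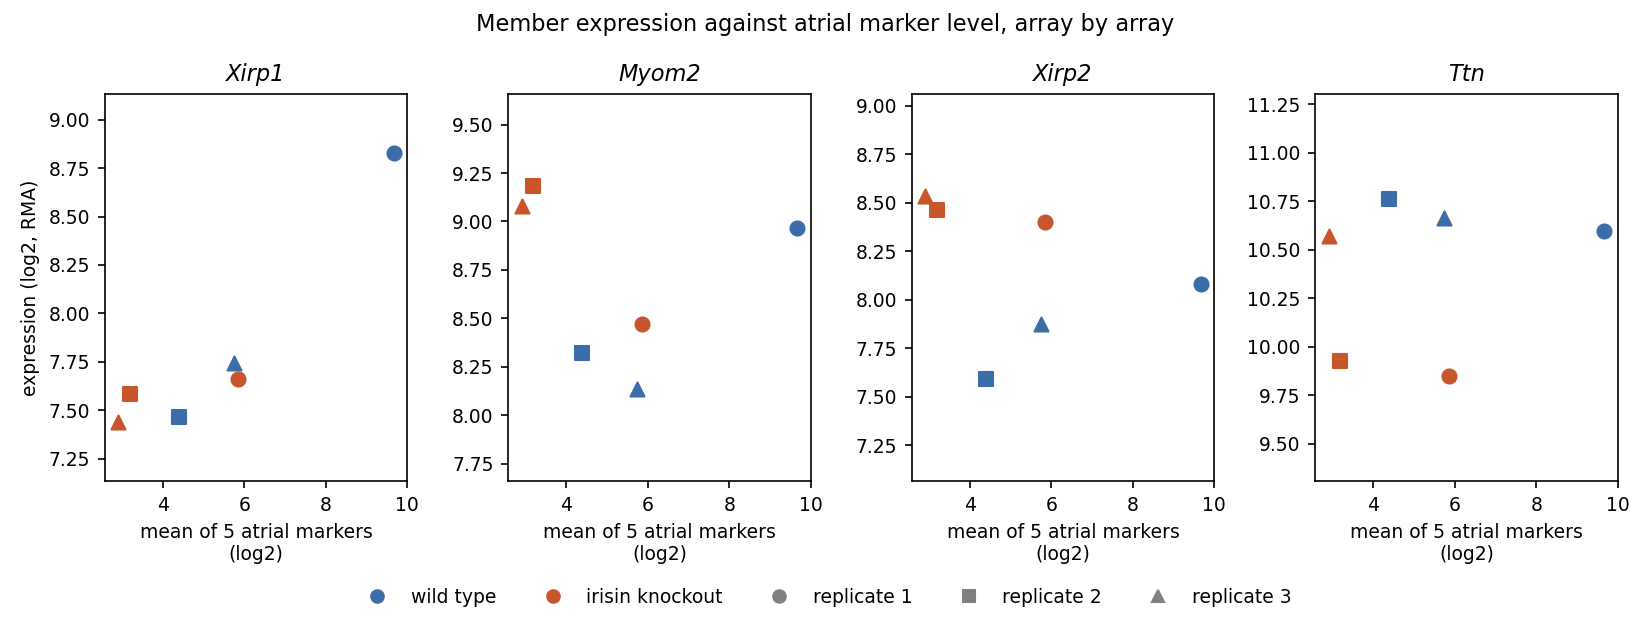
Expression of Xirp1, Myom2, Xirp2 and Ttn (log2, vertical) against the mean of 5 atrial markers on the same array (log2, horizontal), with 1 point per array, wild type in blue and knockout in orange. Wild type replicate 1, at an atrial mean of 9.67, is the array where Xirp1 is highest. Within wild type, Xirp2 too is highest there (8.08), and lowest on replicate 2 (7.59), where the atrial mean is 4.39. On knockout arrays, with atrial means from 2.91 to 5.85, Xirp2 lies above all wild type arrays. Within the knockout the order is opposite: Xirp2 is lowest on replicate 1 (8.40, atrial mean 5.85) and highest on replicate 3 (8.54, atrial mean 2.91). The part of atrial RNA in these values was not tested.

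Desmin was higher on every knockout array by a small margin. Des encodes the muscle intermediate filament protein, made in heart muscle and also in smooth muscle, and read 9.62, 9.49 and 9.21 in wild type and 9.79, 9.85 and 9.82 in the knockout (Entrez gene 13346). The groups did not overlap, and the knockout arrays lay close together (9.82 ± 0.03, SD, n = 3). The difference of 0.38 (SE 0.13, 95% interval 0.08 to 0.69), 1.30-fold, did not pass (limma adjusted p = 0.0927). It passed after each array was centred on its median (0.49, adjusted p = 0.0431), where 13.6% of all genes were called higher, and it turned to -0.046 after cyclic loess. Of 6 smooth muscle markers 5 were called lower in the knockout, and the remaining marker had a difference of -0.78 (limma adjusted p = 0.0501). Their mean was 6.59 to 8.58 in wild type and 4.96 to 5.43 in the knockout, the opposite direction to Des on the deposited scale. The lower markers numbered 3, 2 and 3 without knockout replicates 1, 2 and 3, and 3 without both arrays numbered 1. Of 5 markers of pericytes, cells of small vessels, 3 were called higher and 0 lower by limma, with a median of 1.01. The other 2 did not pass. The mean of the 5 was 6.48 to 6.86 in wild type and 7.28 to 7.45 in the knockout, the same direction as Des. The higher pericyte markers numbered 2 after quantile normalization, after cyclic loess and when any 1 knockout array was left out. The part of smooth muscle and pericyte markers in the value of Des was not tested.

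The choice of scaling decided which of the 8 genes was called. On deposited values and after centring on array medians Xirp2 was called higher, joined by Des in the latter. After quantile normalization, which called 14.7% of all genes in either direction, 0 of the 8 were called by limma, and 3 (Ttn, Xirp1 and Xirp2) had an unadjusted p under 0.05. On deposited values 3 (Xirp2, Ttn and Des) had an unadjusted p under 0.05. After cyclic loess, Ttn was called lower (-1.03, adjusted p = 0.00937), where 7.20% of all genes and 5 of the 10 cardiomyocyte markers were called lower, the markers with a median of -0.60. Under these 4 scalings Xirp2 had the highest difference of the 7 bright genes, and Ttn or Xirp1 the lowest.

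**Figure D3:**
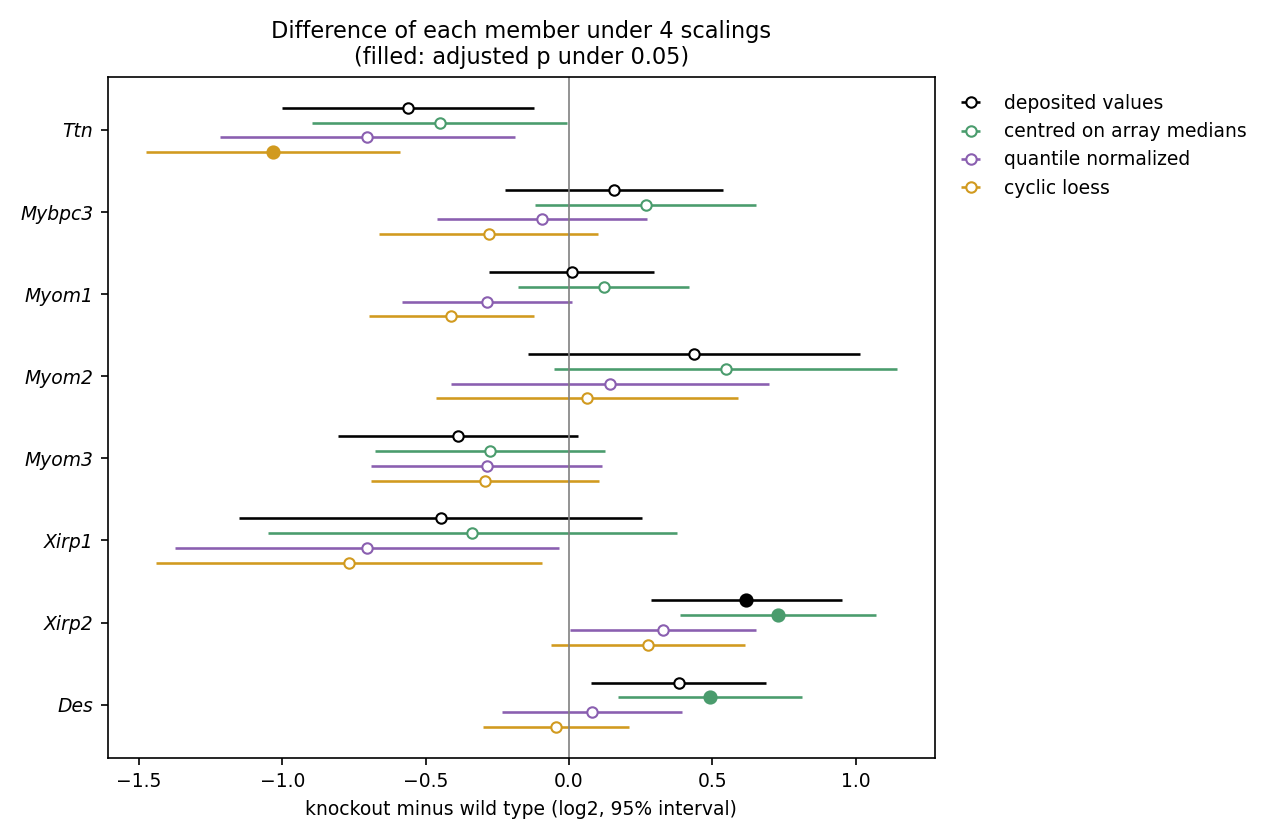
Knockout minus wild type difference of each gene (log2) with its 95% interval, under 4 scalings of the arrays; filled points have an adjusted p under 0.05. Xirp2 is filled on deposited values (0.62) and after median centring, Des after median centring only, and Ttn after cyclic loess only (-1.03).

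Ratios between related genes within an array are free of any shift of the whole array. In all, 7 such ratios were compared by exact two-sided permutation tests, which cannot give a p below 0.1 with 3 arrays against 3, so none could pass. For 3 of the 7 the groups did not overlap. The log2 ratio of Xirp2 to Xirp1 was -0.75, 0.13 and 0.13 in wild type and 0.74, 0.88 and 1.09 in the knockout. The ratio differed by 1.07 log2 units, or 2.09-fold (exact permutation p = 0.1, adjusted over the 7 ratios 0.233). The difference stayed between 0.77 and 1.21 when any 1 array was left out, and was 1.03 after quantile normalization and 1.04 after cyclic loess.

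On deposited values the ratios of titin to its thick filament and M-band neighbours were lower on every knockout array than on any wild type array. The log2 ratio of Ttn to Mybpc3 was 1.05, 0.83 and 0.95 in wild type and 0.26, -0.14 and 0.56 in the knockout, a difference of -0.72 (exact permutation p = 0.1, adjusted 0.233). The ratio of Ttn to Myom1 was 1.13, 1.20 and 1.20 in wild type and 0.53, 0.29 and 1.01 in the knockout, a difference of -0.57 (exact permutation p = 0.1, adjusted 0.233). In both ratios knockout replicate 3 lay nearest to wild type. After quantile normalization the groups overlapped in the ratio of Ttn to Myom1 (-0.42, exact permutation p = 0.4), and not in that of Ttn to Mybpc3 (-0.61). The ratio of Myom2 to Myom1 differed by 0.43 and that of Des to Mybpc3 by 0.23, and in both the groups overlapped (exact permutation p = 0.2 and 0.4). The ratios of Myom3 to Myom1 and to Myom2 rest on values of Myom3 that are not told apart from background. Their measured differences were -0.40 and -0.82, with overlap (exact permutation p = 0.3 and 0.2), and the first turned to 0.12 after cyclic loess.

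**Figure D4:**
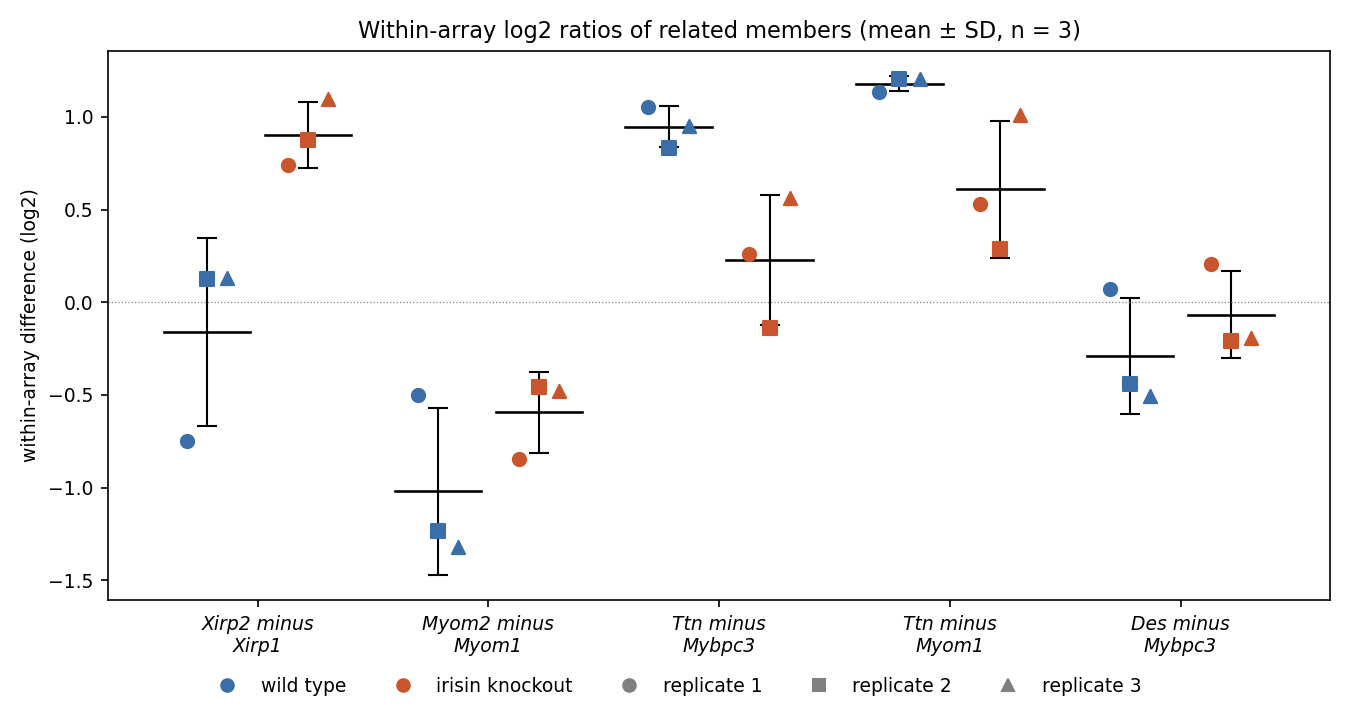
Within-array log2 ratios of related genes on each array, wild type in blue and knockout in orange, with mean ± SD of 3 arrays in black. The groups do not overlap for Xirp2 minus Xirp1 (wild type mean -0.16, knockout mean 0.90), Ttn minus Mybpc3 and Ttn minus Myom1.

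The genes whose profile was nearest to that of Xirp2 were not sarcomere scaffolds. After each gene was centred on its own mean over the 6 arrays, the root mean square distance to Xirp2 was smallest for Pramel12 (0.05) and Myl6b (0.05), a myosin light chain gene, among 11591 genes above the median level. The median distance over those genes was 0.39. Both had low values, from 2.84 to 3.82 for Pramel12 and from 1.92 to 2.94 for Myl6b.

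Genes whose products work with these scaffolds were followed in 8 lists. Of 91 genes measured, 22 were higher, 8 were lower and 61 did not pass, so that 33.0% were called against 16.6% of all genes and 45.7% of the brightest part. Cyclic loess turned the split to 14 higher and 17 lower. The lists were chosen with earlier results of these data known, so their counts are a description.

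Among partners of titin, 3 of 20 were higher, 1 was lower and 16 did not pass, with a median difference of 0.19. Ankrd23, a stretch-responsive ankyrin repeat protein of the titin spring region, rose by 0.99 (SE 0.14, limma adjusted p = 0.00301). Actn2, the alpha-actinin that anchors titin in the Z-disc, rose 1.70-fold to 11.10 ± 0.10 (SD, n = 3), a call lost after cyclic loess (0.27, adjusted p = 0.232) and after centring on cardiomyocyte markers, where the difference was 0.71 (0.0621) against 0.76 on deposited values. Capn3, a protease held on titin, rose by 0.83 at a low level. Its call was lost when wild type replicate 2 was left out (adjusted p = 0.0517), or knockout replicate 2 (0.0885) or 3 (0.0738). The titin cap gene Tcap had a difference of -0.41 and did not pass (adjusted p = 0.0987), but passed as lower after quantile normalization (0.0129) and cyclic loess (0.00689). Without wild type replicate 1, 6 partners were higher, and after median centring 5. Cyclic loess gave 2 higher and 4 lower, and quantile normalization 3 and 3.

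Among the 9 M-band partners measured, 1 was higher and 1 lower, with a median of 0.17. Lrrc39, which encodes myomasp, an M-band protein that binds myosin, rose 2.61-fold, from 6.43, 6.77 and 6.42 in wild type to 7.95, 7.96 and 7.85 (SE 0.13, limma adjusted p = 0.000629). Obsl1, which encodes obscurin-like 1, a link between titin and myomesin, was lower by 0.80 log2 units (-0.80), at 6.20, 6.31 and 6.21 in wild type and 5.19, 5.58 and 5.54 in the knockout (SE 0.14, limma adjusted p = 0.00581). In both genes the groups lay clear of each other, and both kept their calls in all 18 alternatives.

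In the list of myosin-binding proteins and thick filament genes, 4 of 13 were higher and 0 lower by limma, with a median of 0.10. Prkaca, the catalytic subunit of protein kinase A, which phosphorylates cardiac myosin-binding protein C, rose 2.07-fold (adjusted p = 0.00268). Smyd1, a methyltransferase needed for thick filament assembly, rose 1.85-fold (0.00705), and Myh7, the slow myosin heavy chain, rose 3.31-fold (0.0155). Camk2d, another kinase that acts on cardiac myosin-binding protein C, rose by 0.58 (0.0153), but lost its call without knockout replicate 2 or 3 (0.0699 and 0.0517), after quantile normalization (0.0730), after cyclic loess (0.0963) and after centring on cardiomyocyte markers (0.153). Of the other myosin-binding protein genes, Mybphl, known from atrial muscle, read 8.47 in wild type replicate 1, the array highest in atrial markers, and 1.84 to 3.69 on the other arrays.

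Among partners of the Xin proteins, 3 of 11 were higher and 2 lower, with a median of 0.00. Cdh2 (N-cadherin), Jup (plakoglobin) and Nrap, which joins actin to the disc, rose 1.89-fold, 1.88-fold and 1.79-fold (limma adjusted p = 0.00152, 0.00310 and 0.00513), in every alternative tried. Vasp, which promotes actin filament growth, was lower by 0.67 (-0.67, adjusted p = 0.0172), a call lost when wild type replicate 3 (0.0539), knockout replicate 1 (0.0725) or knockout replicate 3 (0.0655) was left out. Without wild type replicate 3 the lower genes of this list numbered 1, and without knockout replicate 1 or 3 limma called 0. Ctnnb1, which encodes beta-catenin, had a difference of 0.07 and did not pass (adjusted p = 0.753).

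The desmin network held the most calls of the 8 lists: 7 of 17 were higher, 4 lower and 6 did not pass, with a median of 0.30. Sync (syncoilin, an intermediate filament protein that binds desmin) rose 2.57-fold, Jup 1.88-fold, and Klhl24, a ubiquitin ligase adaptor, 1.72-fold (limma adjusted p at or below 0.00310). Lmna, the nuclear lamin, was lower by 1.07 log2 units (-1.07, adjusted p = 0.00278). The lower genes also included Vim, the intermediate filament gene of fibroblasts and vessels, at -1.16. Of 8 fibroblast markers 5 were called lower and 3 did not pass. Their mean was 6.89 to 7.74 in wild type and 6.34 to 6.48 in the knockout, and their part in the value of Vim was not tested. The fibroblast markers called lower numbered 3 without knockout replicate 2 or 3, or without both arrays numbered 1. In these fits lower calls among all genes fell from 1432 to 701, 826 and 938. The median of the fibroblast markers was then -0.88, -0.86 and -0.71, against -0.85 with all arrays. Leaving out any of 4 arrays (wild type replicates 2 and 3, knockout replicates 1 and 2) took the lower genes of this list to 2.

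Splicing regulators of giant transcripts gave 2 higher and 1 lower of 11, with a median of 0.02. Quantile normalization gave 0 higher by limma and 2 lower (median -0.10), and cyclic loess 0 higher and 4 lower (median -0.14). Rbm20, the main repressor of titin exons in the heart, had a difference of -0.31 and did not pass (limma adjusted p = 0.194), but passed as lower after quantile normalization (0.0458) and cyclic loess (0.0257). Clk1, a kinase of splicing factors, was lower by 1.49 (-1.49, adjusted p = 0.00440). Rbfox1 rose by 0.73, and lost its call without knockout replicate 1, 2 or 3 (0.0886, 0.0671 and 0.0641) and after quantile normalization, cyclic loess or centring on cardiomyocyte markers (0.0827, 0.0966 and 0.0616). Mbnl1, at 0.44, lost its call without any 1 array but wild type replicate 3 (0.0892 to 0.133), with the replicate number as a block (0.0729) and after quantile normalization or cyclic loess (0.540 and 0.749), as well as after centring on cardiomyocyte markers (0.299). Of this list limma called 1 gene higher without wild type replicate 1 or 2, and 0 when any knockout array was left out.

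Of 13 cardiac muscle transcription factors 3 were higher and 0 lower by limma, with a median of 0.28. Mef2a and Mef2d, which encode factors that bind the MEF2 site, rose 1.71-fold and 1.81-fold (limma adjusted p = 0.00360 and 0.00585), and both were lost after cyclic loess (0.0743 and 0.0952). Gata4 rose 1.57-fold (adjusted p = 0.0129), and was lost without knockout replicate 1 or 2 (0.0568 and 0.0612) and after quantile normalization (0.0626), cyclic loess (0.125) or centring on cardiomyocyte markers (0.0781). Without both arrays numbered 1, Gata4, Rbfox1 and Mbnl1 also lost their calls (0.0926, 0.106 and 0.171). Without wild type replicate 1, 6 of the 13 were higher, after median centring 5, and after cyclic loess 0 were called by limma. Among 8 mechanical stress genes Myh7 alone was called, with a median difference of 0.50 for the list. That median was 0.08 without wild type replicate 2, 0.75 without wild type replicate 1 and 0.11 after cyclic loess. Ankrd1, a titin-linked stress gene, read 11.30, 9.95 and 10.48 in wild type and 11.47, 11.46 and 11.12 in the knockout (limma adjusted p = 0.125). Without wild type replicate 1, or both arrays numbered 1, 3 stress genes were higher. As lower, 1 stress gene was called after quantile normalization, with the replicate number as a block, without knockout replicate 1 and without the dimmest 50% of genes, and 2 after cyclic loess.

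**Figure D5:**
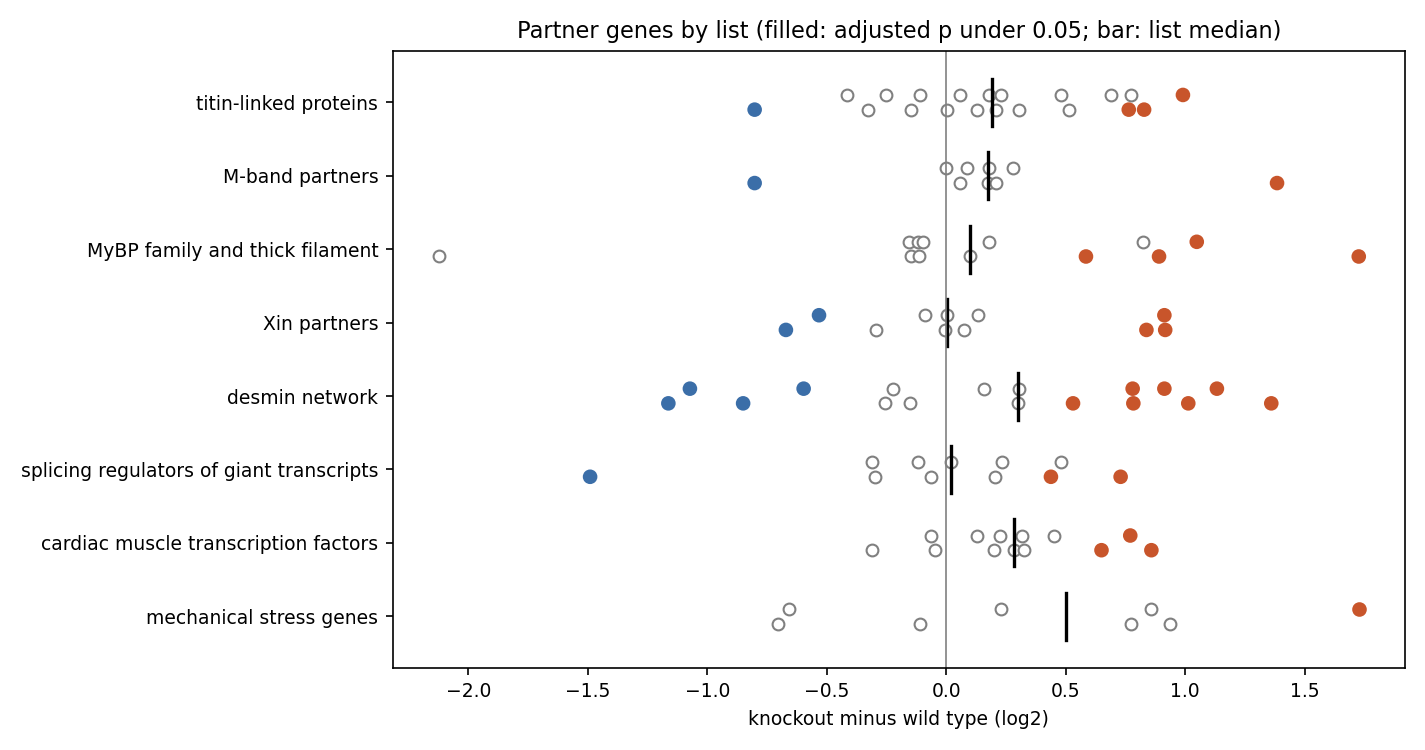
Knockout minus wild type difference (log2) of each partner gene by list, 1 point per gene, filled where the adjusted p is under 0.05 (orange higher, blue lower), with the list median as a black bar. The desmin network holds 7 higher and 4 lower genes, and most points of the other lists are open.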

How the data were processed

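Per the labels' protocols, biotin-labelled total RNA (TRIzol extraction) was measured on Affymetrix arrays. Per the submitters' processing notes, the authors made the deposited log2 values by RMA, with affy 1.61.0 under R 3.6.0. For the arrays' own values the labels and notes name neither a genome build nor a probe set definition, so gene body coordinates are left out, while promoter positions are those of the RefSeq table's GRCm38.p6, and the log2 scale was inferred from the range of the values. Array medians lay between 2.23 and 2.28 in wild type and between 2.13 and 2.16 in the knockout. The SD over all rows of an array was 2.00 to 2.06 in wild type and 2.12 to 2.15 in the knockout. On both measures the groups did not overlap, so the deposited arrays differ by group in their distribution. Precision is limited by 3 arrays per group.

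Of 25206 rows, 23185 had 1 symbol, 0 had several and 2021 had none. Groups came from the titles. Genes were tested with limma 3.58.1 in R 4.3.3 (lmFit and eBayes, genotype as the only term) and figures drawn with matplotlib 3.10.9. On simulated data for knockout against wild type (23185 genes), limma called 2 of 67 genes given a change of 0.5 (log2), 40 of 67 given 1, 64 of 66 given 2, and 3 unchanged genes. No other genes were changed there, a far smaller share than the 16.6% called in the data. With so few changed genes the adjustment is stricter, so these counts do not give the sensitivity in the data.

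Named are the 8 genes, up to 4 called partners per list by p, and the 2 genes with the profile nearest to a called member. Pln, Tcap, Mybphl, Ctnnb1, Vim, Rbm20 and Ankrd1 were named after their values were seen. The members and lists were chosen with earlier results of these data known. Alternatives were 4 scalings, 2 filters on dim genes, 2 variance models, array weights, all rows, a block for the replicate number, fits without single arrays, and other thresholds. Centring on cardiomyocyte markers and leaving out both arrays numbered 1 were added after the data were seen.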

Additional observations from a re-analysis of the deposited data

How the results depend on the processing

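The count of the 8 genes called higher (1) was 0 after quantile normalization, after cyclic loess, after centring on cardiomyocyte markers and at a threshold of 0.01. It was 2 after centring on array medians, without both arrays numbered 1 and at a threshold of 0.1, and 0 to 1 when 1 array was left out. The count called lower (0) was 1 after cyclic loess and at a threshold of 0.1, and 0 to 1 when 1 array was left out. Partner genes called higher numbered 14 after cyclic loess and 16 to 28 without 1 array, and those called lower 17 and 5 to 9. All genes called higher ranged from 1403 to 2570 and lower from 701 to 1593 without 1 array. Higher calls numbered 1390 after centring on cardiomyocyte markers, and lower calls 938 without both arrays numbered 1. The share of calls that were higher was 62.8% on deposited values, 76.4% after median centring, 55.2% after quantile normalization, 52.4% after cyclic loess and 55.5% after centring on cardiomyocyte markers, and median centring took the median of all genes from -0.05 to 0.07.

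Differences that reversed were those of Mybpc3 (-0.095 after quantile normalization, -0.28 after cyclic loess), Myom1 (-0.29, -0.41, -0.046 after centring on cardiomyocyte markers, and -0.058 to 0.10 without 1 array) and Des (-0.046 after cyclic loess). The ratio of Myom3 to Myom1 reversed to 0.12 after cyclic loess. The cause was not tested. The filters on dim genes, the variance models, array weights and all rows left the counts of the 8 genes as they were. Same-numbered arrays deviated together only weakly (correlations of 0.0896, 0.0478 and 0.0700 across genes), against -0.119 to 0.0548 for arrays with other numbers. The numbers were not taken to pair the samples, though these values do not settle whether they do. Wild type replicate 2 lay nearest to knockout replicate 3 (0.0548). With the replicate number as a block, Xirp2 was still called (0.62, adjusted p = 0.0362), with 1 gene higher and 0 lower among the 8, and 2247 higher and 1330 lower among all genes.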
